A study of Sus scrofa with 35 samples.

Results

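The genes described here present antigen through major histocompatibility complex (MHC) class II. They were followed in the longissimus dorsi, the long back muscle, of pigs that were either kept at thermoneutrality or exposed to heat. MHC class II molecules are pairs of an alpha and a beta chain, in the pig SLA-DR (SLA-DRA with SLA-DRB1) and SLA-DQ (SLA-DQA1 with SLA-DQB1), where SLA stands for swine leukocyte antigen. CD74, the invariant chain, occupies the groove of a new dimer and carries it to the endosome. There SLA-DM (SLA-DMA with SLA-DMB) takes out the remaining fragment of CD74 and helps peptides in, and SLA-DO (SLA-DOA with SLA-DOB) restrains DM. The molecules are made constitutively by dendritic cells, B cells and macrophages, while muscle fibres at rest carry little of them. The peptide groove of DR beta and of both DQ chains differs strongly between haplotypes.

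The probes were those whose gene name in the scanner files was one of 9 class II genes, in the swine or the human spelling. This gave 31 of the 60305 probes of the porcine array, for 8 of the 9 genes: 8 probes for SLA-DRA, 4 for SLA-DRB1, 3 for SLA-DQA1, 5 for SLA-DQB1, 2 for SLA-DMA, 2 for SLA-DMB, 3 for SLA-DOB and 4 for CD74. No probe carried the name SLA-DOA. Of the 31 probes, 28 had the swine name or CD74 and 3 had a human name (HLA-DRA, HLA-DQA1 and HLA-DQB1). In the RefSeq annotation of assembly Sscrofa11.1 the 8 SLA genes stand on 1 chromosome in the order SLA-DRA, SLA-DRB1, SLA-DQA1, SLA-DQB1, SLA-DOB, SLA-DMB, SLA-DMA and SLA-DOA, and CD74 lies elsewhere. A total of 30 probes passed the filter on dim probes, and 25 of these were well above background on all 35 arrays.

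Pigs were castrated males of 3 types raised on 1 experimental farm in Guadeloupe: Creole, a local breed, Large White, a selected breed, and their F1 cross. By the methods they entered the climatic room at 11 weeks of age. Thermoneutral (TN) pigs were labelled 24 °C and slaughtered before the challenge. Heat-stressed (HS) pigs were labelled 30 °C, whereas the growth protocol and the methods give a challenge at 32 °C, with slaughter after 4 or 5 days. Each group held 6 pigs, except F1 HS with 5, and each pig gave 1 single-colour array, for 18 TN and 17 HS arrays. TN and HS pigs differed in slaughter day by design, so that temperature and day cannot be told apart. The paper also reports that feed intake fell during the challenge, and there was no TN group fed the same amount. Heat and lower feed intake therefore cannot be told apart either. By the methods, litters were split between TN and HS, whereas pigs of a breed shared pens and each pen was slaughtered at 1 temperature. The labels give neither litter nor pen, and the p-values treat the pigs as independent. They are too small if pigs of a pen are alike.

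On each array 58.4% to 75.9% of probes were well above background and no spot was saturated. The arrays of HS pigs were the brighter ones on average, as given with the class II values further on. The labelled tissue was borne out by its markers, since all 11 measured skeletal muscle genes (such as MYH4, CKM and TNNC2) were well above background on every array. Their mean lay between 18.03 and 18.59 on the log2 scale.

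The probes are 60 bases long and each reads 1 stretch of the transcript, so that they are shown for the genes on which the results turn. The first 4 lines hold 1 probe each for SLA-DRA, SLA-DRB1, SLA-DMB and CD74, picked among the 29 of 31 member probes with at least 1 reading frame without stop codon. They are not the brightest probes, whose values are given further on, and changed with heat by 0.55, 0.50, 0.61 and 0.39 on the log2 scale. The last lines hold the SLA-DQA1 probe A_72_P743257, designed on the gz allele, and the probe A_72_P763148, named SLA-DQA in the files. The capitals mark the bases at which the DQ alpha probes differ when aligned.
SLA-DRA A_72_P561324: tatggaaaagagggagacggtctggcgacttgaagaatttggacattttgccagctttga
SLA-DRB1 A_72_P110316: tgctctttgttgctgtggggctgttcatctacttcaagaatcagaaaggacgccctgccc
SLA-DMB A_72_P629649: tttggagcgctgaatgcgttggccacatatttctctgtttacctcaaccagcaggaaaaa
CD74 A_72_P223292: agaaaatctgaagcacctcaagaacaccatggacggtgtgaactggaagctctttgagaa
SLA-DQA1 A_72_P743257: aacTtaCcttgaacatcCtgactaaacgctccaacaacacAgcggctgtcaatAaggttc
SLA-DQA A_72_P763148: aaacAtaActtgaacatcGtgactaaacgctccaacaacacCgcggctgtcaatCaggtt

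The 31 member probes had 31 distinct sequences. Overlaps of at least 20 bases at 80% identity or more joined 5 pairs, 4 for SLA-DRA and 1 for SLA-DRB1, so that 8 of the probes share target sequence with another.

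The first comparison asked whether class II genes changed in muscle with heat, over the 3 breeds. They were higher in HS than in TN pigs: 21 of the 30 tested probes rose and none fell (limma with breed and temperature in the model, Benjamini-Hochberg adjusted p below 0.05 over 41517 probes). Of all probes 7.73% were called higher and 16.0% in either direction. At an unadjusted p below 0.05 the count was 27 of 30, beside 30.7% of all probes. The median change of the 30 probes was 0.53 on the log2 scale, against -0.02 for all probes. With 1 probe for each gene, the brightest, 6 of 8 genes rose: SLA-DRA, SLA-DRB1, SLA-DQB1, SLA-DMA, SLA-DMB and CD74. SLA-DQA1 and SLA-DOB were not called.

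The SLA-DRA gene encodes the almost invariant alpha chain of DR. Its brightest probe (A_72_P640825, log2 normalised intensity) had a lowest, median and highest value of 12.52, 13.33 and 13.81 in Creole TN and of 13.69, 14.03 and 14.99 in Creole HS pigs. In F1 pigs it ranged from 12.93 over a median of 13.58 to 14.59 at TN, and the 5 HS pigs had 13.79, 13.86, 13.94, 13.99 and 14.58. In Large White it went from 12.96 over 13.51 to 13.68 at TN, and from 13.69 over 14.10 to 14.28 at HS. All 17 HS pigs lay above the TN mean of their own breed. TN and HS pigs overlapped in Creole and F1, and stood apart in Large White by a small gap (13.675 against 13.685). The highest F1 TN pig lay above all F1 HS pigs. The HS minus TN difference was 0.61 ± 0.15 on the log2 scale (SE, 18 against 17 arrays), a 1.53-fold rise (limma adjusted p = 0.00501). All 8 SLA-DRA probes rose, by 0.54 to 0.61. Among the other SLA-DRA probes only A_72_P683574 had a breed without overlap of TN and HS, and this was Creole. For 28 of the 30 tested member probes TN and HS overlapped in every breed. The share over all probes was not computed.

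SLA-DRB1, the beta chain of DR, moved less surely. Its brightest probe (A_72_P545751) had 12.82 ± 0.62 at TN (SD, n = 18; 11.74 to 13.96) and 13.32 ± 0.44 at HS (SD, n = 17; 12.48 to 13.99), with 14 of 17 HS pigs above the TN mean of their breed. The groups overlapped in each breed. The difference of 0.51 ± 0.18 (SE) passed the test narrowly (limma adjusted p = 0.0457), and 2 of the 4 probes were called, with changes of 0.40 to 0.51 over all 4. Leaving out 1 array took the call away for 21 of the 35 arrays, in each of the 6 groups.

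SLA-DQB1 encodes the beta chain of DQ. The brightest probe (A_72_P039061) had 12.78 ± 0.58 at TN (SD, n = 18; 11.76 to 14.01) and 13.37 ± 0.37 at HS (SD, n = 17; 12.71 to 14.04). All 17 HS pigs exceeded the TN mean of their breed, and 6 exceeded its highest TN pig. The difference was 0.59 ± 0.15 (SE, limma adjusted p = 0.00779), and 4 of 5 probes rose. The fifth (A_72_P631166) changed by 0.38 with an adjusted p of 0.0818.

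The genes of DM, the peptide editor, gave closely similar differences. SLA-DMA had 11.49 ± 0.53 at TN and 12.01 ± 0.40 at HS (SD, n = 18 and 17; A_72_P025111), a difference of 0.52 ± 0.16 (SE, limma adjusted p = 0.0223). SLA-DMB had 10.97 ± 0.61 and 11.58 ± 0.45 (A_72_P375073), a difference of 0.61 ± 0.18 (SE, limma adjusted p = 0.0184). Both probes of each gene rose. Within the 4 slides of 4 TN and 4 HS arrays each, the difference went from 0.080 (slide 2) to 1.00 (slide 3) for SLA-DMA and from 0.057 to 1.18 on the same slides for SLA-DMB. TN and HS pigs overlapped in each breed for both genes, with 7 of 17 HS pigs above the highest TN pig of their breed.

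CD74, the chaperone of the new dimers, rose by the smallest amount of the 6 called genes. The brightest probe (A_72_P395573) had 10.84 ± 0.45 at TN (SD, n = 18; 10.23 to 11.81) and 11.22 ± 0.32 at HS (SD, n = 17; 10.74 to 12.09). In Large White the 6 TN pigs lay close together, between 10.50 and 10.78, and 1 HS pig at 10.74 fell among them. The difference was 0.39 ± 0.13 (SE, limma adjusted p = 0.0371), and 3 of 4 probes rose, the fourth at 0.32 with an adjusted p of 0.0711. Without 1 array the call of the brightest probe was lost for 13 of 35 arrays.

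**Figure D1:**
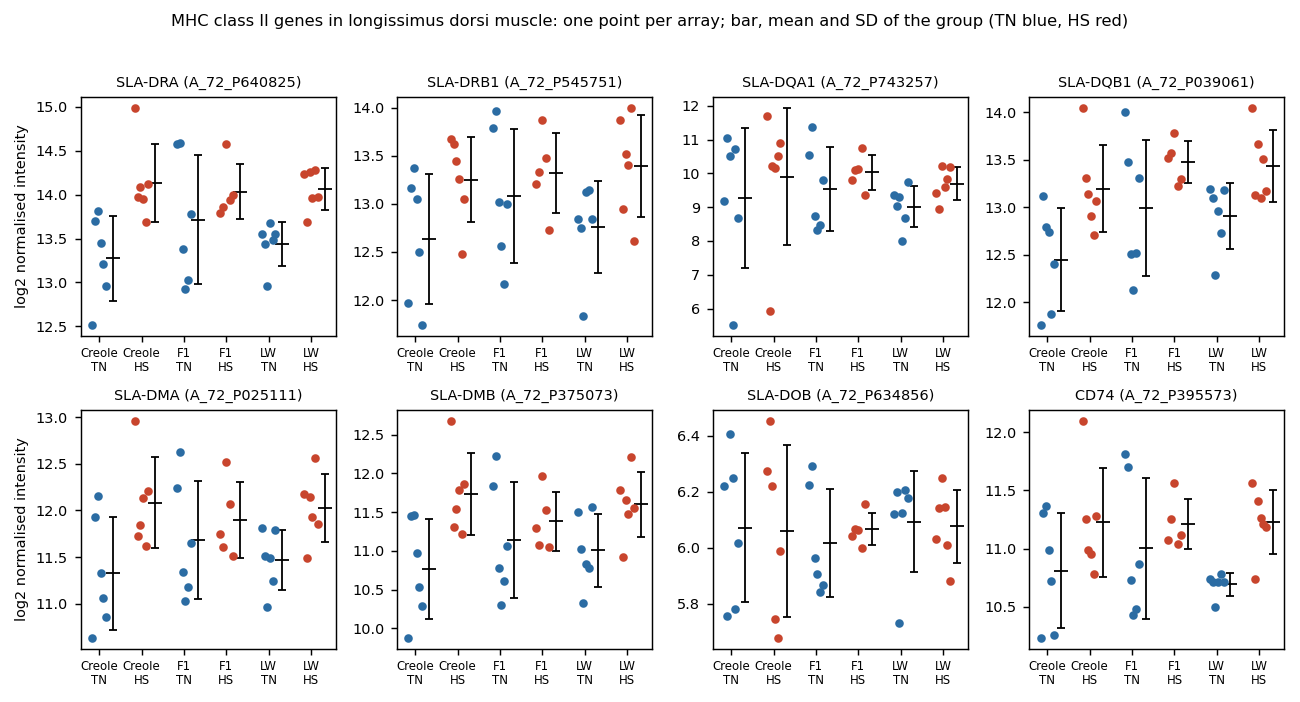
Log2 normalised intensity of the brightest probe of each gene (vertical axes, scaled per gene) in the 6 groups (LW, Large White; TN blue, HS red), 1 point per pig with the mean and SD of the group beside it. SLA-DRA at HS lies between 13.69 and 14.99, while the SLA-DQA1 probe falls to 5.52 and 5.93 in single Creole pigs and SLA-DOB stays between 5.68 and 6.45.

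SLA-DOB, the beta chain of DO, was dim and was not called. Its brightest probe (A_72_P634856) had 6.06 ± 0.21 at TN (SD, n = 18) and 6.07 ± 0.19 at HS (SD, n = 17), a difference of 0.01 with a 95% interval of -0.13 to 0.15 (limma adjusted p = 0.967). The second tested probe (A_72_P300459) changed by 0.19 (limma adjusted p = 0.108), and its interval of the difference did not include 0. The third (A_72_P440006) did not pass the filter: it was well above background on 3 of 35 arrays, with 6.70 in 1 Large White TN pig and 7.44 in 1 Large White HS pig.

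The probes named SLA-DQA1, for the alpha chain of DQ, differed from those of the other bright members in their spread between pigs. Within groups the SD was 1.36 for A_72_P743257 and 1.04 for A_72_P765361 on the log2 scale, against 0.15 to 0.69 for the other 28 tested member probes and a median of 0.23 over all probes. Neither was called, with changes of 0.60 (95% interval -0.26 to 1.46, limma adjusted p = 0.349) and 0.42 (adjusted p = 0.423). The third, O6188, has the name HLA-DQA1 and a mouse accession, was dim (5.89 at TN and 5.76 at HS) and changed by -0.13 (limma adjusted p = 0.0873).

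**Figure D2:**
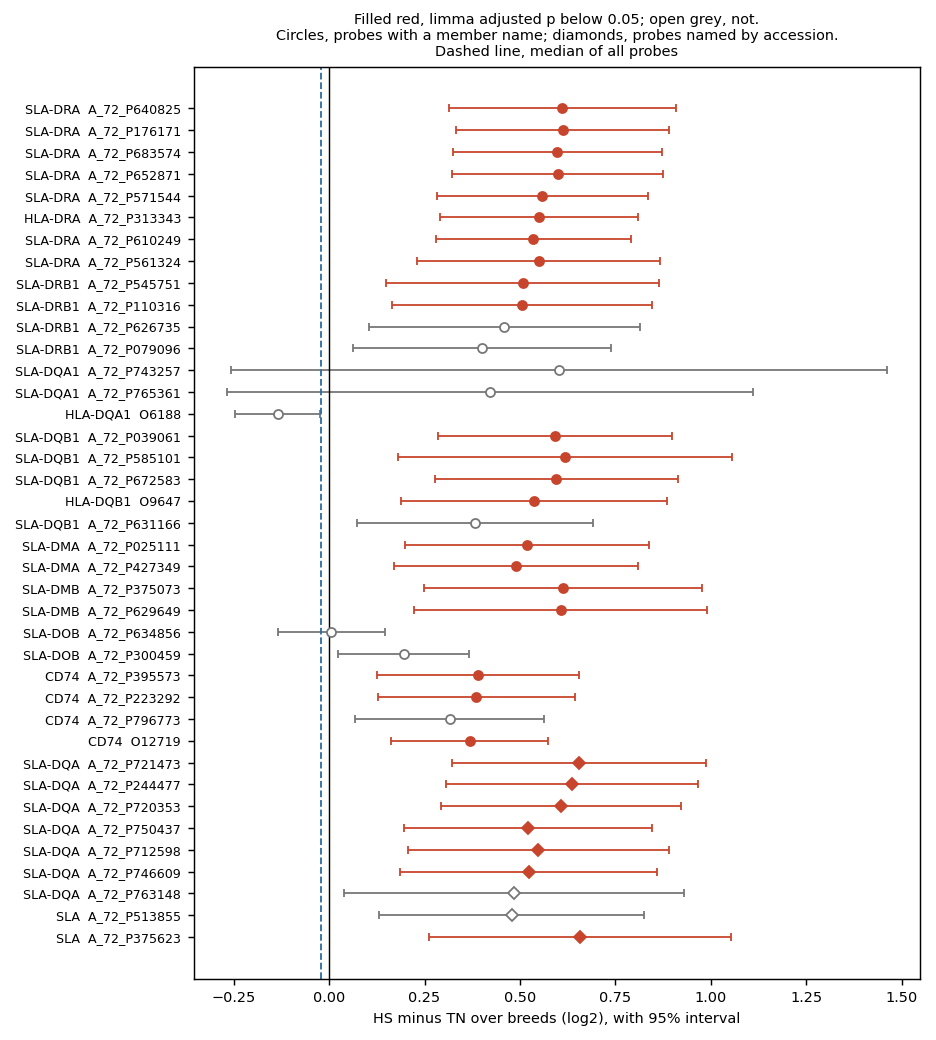
HS minus TN over breeds on the log2 scale for each tested probe (horizontal axis, with 95% interval), filled where the limma adjusted p was below 0.05. SLA-DRA probes cluster between 0.54 and 0.61 with narrow intervals, and the SLA-DQA1 probes A_72_P743257 and A_72_P765361 have the widest intervals.

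The 2 spread-out probes each overlapped a probe that the files name SLA-DQA, a spelling outside the rule. A_72_P743257 and A_72_P763148, printed above, were identical at 54 of 59 aligned bases, and the 5 differences, counted from the 5′ end of the former, were T4A, C7A, C18G, A41C and A54C. In Large White the pair moved together closely (r = 0.98 over 12 pigs), and the first ranged from 7.99 to 10.21. In F1 pigs r was 0.82 (n = 11), and 0.66 without the 2 pigs farthest from the median of the second probe. In Creole r was 0.74 (n = 12), and A_72_P743257 ran from 5.52 to 11.69. It was at 5.52, not well above background, in 1 Creole TN pig and at 5.93 in 1 Creole HS pig, whereas A_72_P763148 stayed between 8.68 and 10.88 in the breed. The second pair, A_72_P765361 and A_72_P244477, was identical at 53 of 56 aligned bases (C20T, A37C and A47C, counted from the 5′ end of A_72_P244477). Its r was 0.37 in Large White, -0.50 in F1 and 0.48 in Creole. The 2 probes of a pair are read on the same arrays, and these r are over pigs that differ in temperature. The pig genotypes at the locus were not part of the data, so that a part of haplotypes in the spread was not tested.

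**Figure D3:**
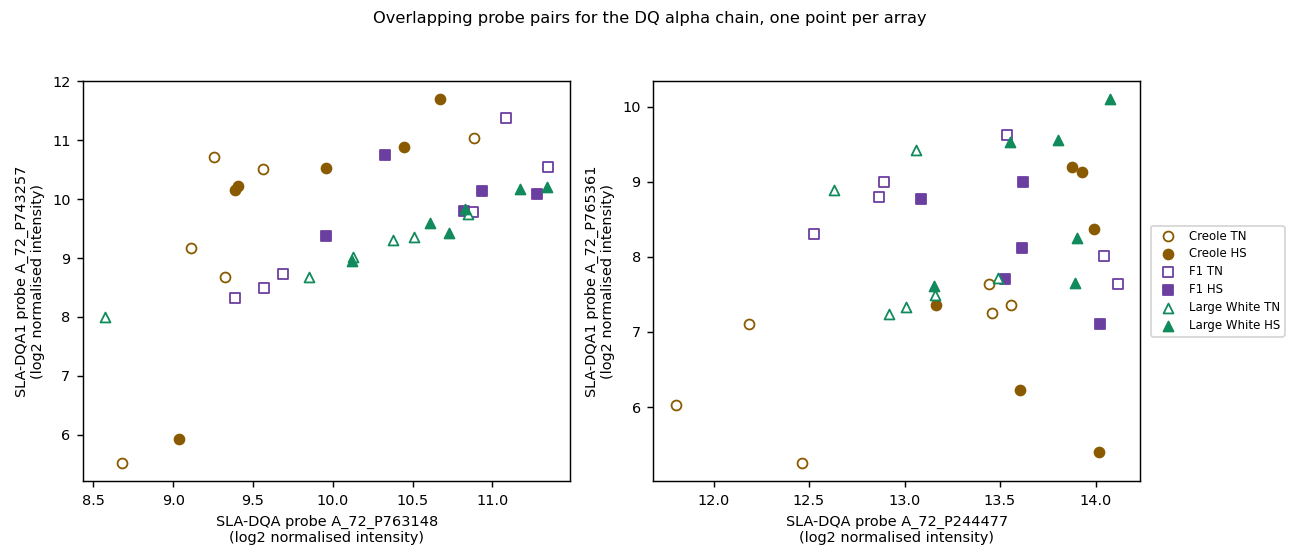
Values of the overlapping DQ alpha probes on the same arrays (both axes log2 normalised intensity; 1 point per pig, symbol by breed, filled for HS). Large White pigs lie along 1 line in the left panel (r = 0.98), with several Creole pigs away from it and 2 near the bottom.

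In addition to these, 7 probes had the name SLA-DQA with an accession that the RefSeq table pairs with SLA-DQA1. Of these 7, 6 rose, by 0.52 to 0.66. Their within-group r with SLA-DRA over the 35 arrays was 0.53 for A_72_P763148 and 0.85 to 0.95 for the other 6, against 0.41 and -0.21 for the SLA-DQA1 probes A_72_P743257 and A_72_P765361. A further pair of probes had an ambiguous name, SLA (Src-like-adaptor) in the files, with an accession that the RefSeq table gives to SLA-DOA with SLA as a synonym. They changed by 0.66 (A_72_P375623, limma adjusted p = 0.0195) and 0.48 (A_72_P513855, adjusted p = 0.0508). Which gene they read could not be settled, and SLA-DOA is not reported from them. With all 9 added, this unsettled pair among them, 28 of 39 probes were called higher. The 28 include A_72_P375623 of that pair.

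Most member probes followed each other from pig to pig. After removal of the group means, the median r over 35 arrays was 0.73 for pairs of the 30 probes from different genes and 0.92 for pairs from the same gene. The median r of a probe with the other members was -0.17 for A_72_P765361, -0.21 for O6188, 0.38 for A_72_P743257, and 0.33 and 0.54 for the SLA-DOB probes. Without these 5 probes, left out after their values were seen, the r ranged from 0.35 to 0.99 with a median of 0.81. Probes of a gene share its transcript and all share the arrays, so this is a description.

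Within breeds the same comparison rested on 6 against 6 pigs, or 6 against 5. In Creole SLA-DRA (A_72_P640825) was higher at HS by 0.86 ± 0.25 (SE, limma adjusted p = 0.0586), in F1 by 0.32 ± 0.26 (adjusted p = 0.841) and in Large White by 0.62 ± 0.25 (adjusted p = 0.200). A single probe of the 30 was called in Creole, the SLA-DRA probe A_72_P683574 (0.98, adjusted p = 0.0268), where 1.91% of all probes were called. With slide as a block it was 4 probes (SLA-DRA and SLA-DQB1 by their brightest probes, beside 1.06% of all probes). Without 1 array it was 0 to 9 (9 without Creole TN replicate 3), and the count changed for 13 of the 35 arrays. No member was called in F1 or in Large White, where 0.00482% of all probes were called in each. At an unadjusted p below 0.05, 17 of 30 were past the threshold in Creole, 0 in F1 and 21 in Large White (all probes, 21.5%, 8.30% and 16.6%).

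The values in F1 pigs at TN overlapped those at HS widely. SLA-DMB had 10.30, 10.92 and 12.22 as lowest, median and highest at TN in F1, and the 5 HS pigs had 11.05, 11.07, 11.29, 11.53 and 11.96. For this gene too the highest F1 TN pig lay above all F1 HS pigs. Its difference was 0.24 ± 0.32 in F1 (SE; 0.077 without F1 TN replicate 4 and 0.46 without F1 TN replicate 2) and 0.96 ± 0.30 in Creole (SE).

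The difference between breeds in the response was tested by the interaction of breed and temperature. No member was called (limma; smallest adjusted p = 0.963; 1 of 30 at an unadjusted p below 0.05), nor any of the 41517 probes, so that 0% was called and 3.84% had an unadjusted p below 0.05. The lack of a call in F1 and Large White is thus not shown to differ from Creole.

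The next comparison asked whether breeds differed in class II level, over TN and HS pigs with temperature in the model. No member was called in Creole minus Large White (3.64% of all probes called), F1 minus Large White (0.525%) or F1 minus Creole (0.477%). With slide as a block the SLA-DQA1 probe A_72_P765361 was called in Creole minus Large White (-1.25, limma adjusted p = 0.0292). That fit called 3.99% of all probes. With the leukocyte mean as a covariate the SLA-DQB1 probe A_72_P631166 was called in Creole minus Large White (0.53, adjusted p = 0.00687), beside 5.46% of all probes. It was also called in F1 minus Creole (-0.49, adjusted p = 0.0375), beside 1.17% of all probes. At an unadjusted p below 0.05 the counts were 2, 1 and 3 of 30, beside 15.4%, 10.5% and 8.88% of all probes. For SLA-DRA the Creole minus Large White difference was -0.05 on the log2 scale (95% interval -0.41 to 0.31), and for CD74 it was 0.06 (-0.26 to 0.38). SLA-DQB1 (A_72_P039061) was at -0.35 in Creole minus Large White (95% interval -0.72 to 0.02, limma adjusted p = 0.363) and at 0.42 in F1 minus Creole (0.04 to 0.80, adjusted p = 0.482). The interval was wider for the SLA-DQA1 probe A_72_P743257, at 0.23 with -0.81 to 1.26 in Creole minus Large White. The smallest adjusted p of any member in these contrasts was 0.0983, for the SLA-DQA1 probe A_72_P765361 in Creole minus Large White (-1.21).

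F1 pigs were also set against the midpoint of their parental breeds. No member was called (0.246% of all probes called), and 1 of 30 had an unadjusted p below 0.05, beside 7.35% of all probes. The difference was 0.16 for SLA-DRA (95% interval -0.16 to 0.48) and -0.04 for SLA-DOB (-0.19 to 0.11).

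In the order of the 6 group means, the 3 TN groups were the lowest for 7 of 8 genes and SLA-DOB was the exception. For SLA-DRA the order from the lowest was Creole TN (13.27), Large White TN (13.44), F1 TN (13.71), F1 HS (14.03), Large White HS (14.07) and Creole HS (14.14). Neighbours in the order did not differ beyond their spread for any gene: none of the 40 steps was called, nor had an unadjusted p below 0.05 (smallest limma adjusted p = 0.486). Of all 120 pairs of groups over the 8 genes 3 were called, namely Creole TN against Large White HS for SLA-DRA and SLA-DQB1, and Creole TN against F1 HS for SLA-DQB1, where 8.68% and 1.73% of all probes were called.

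Genes that control, load and surround class II were taken as a list of 32, of which 27 had a tested probe. In HS minus TN 4 rose and 3 fell (7.73% and 8.30% of all probes), with a median change of 0.15. Those that rose were CTSS (1.19 ± 0.33, SE, limma adjusted p = 0.0134), the cathepsin that trims the invariant chain, and CTSH (0.93 ± 0.32, adjusted p = 0.0402), another lysosomal protease. The remaining ones were IL10 (0.85 ± 0.14, adjusted p = 0.000234), which encodes an anti-inflammatory cytokine, and SPI1 (0.32 ± 0.11, adjusted p = 0.0488), a myeloid transcription factor. Those that fell were RFX5 (-0.18 ± 0.06, adjusted p = 0.0291) and NFYC (-0.15 ± 0.05, adjusted p = 0.0306), subunits of the RFX and NF-Y complexes that bind class II promoters. IFNG, which encodes interferon gamma, the main inducer of class II, fell by 0.15 (adjusted p = 0.0157) at a dim level of 5.99 at TN. For RFX5, 1 of 2 other tested probes moved the other way.

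The brightest probes of the other measured pathway genes were not called, although 2 other probes of CTSB and 1 of NFYB were. IFI30, the thiol reductase of the endosome, changed by 0.83 (limma adjusted p = 0.0516), CD86, a costimulatory ligand, by 0.71 (adjusted p = 0.105) and CD83, which stabilises surface class II, by 0.64 (adjusted p = 0.0834). The interferon signalling genes JAK1, JAK2 and IRF1 lay between 0.067 and 0.16, with adjusted p from 0.370 to 0.520. CIITA, the master activator of class II genes, IRF8 and CTSL had no probe with their name, and CD4 and MARCHF1 had none that passed the filter. Between breeds 1 of the 27 was called, RFXANK in Creole minus Large White (0.31, adjusted p = 0.0224), where 3.64% of all probes were called.

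**Figure D4:**
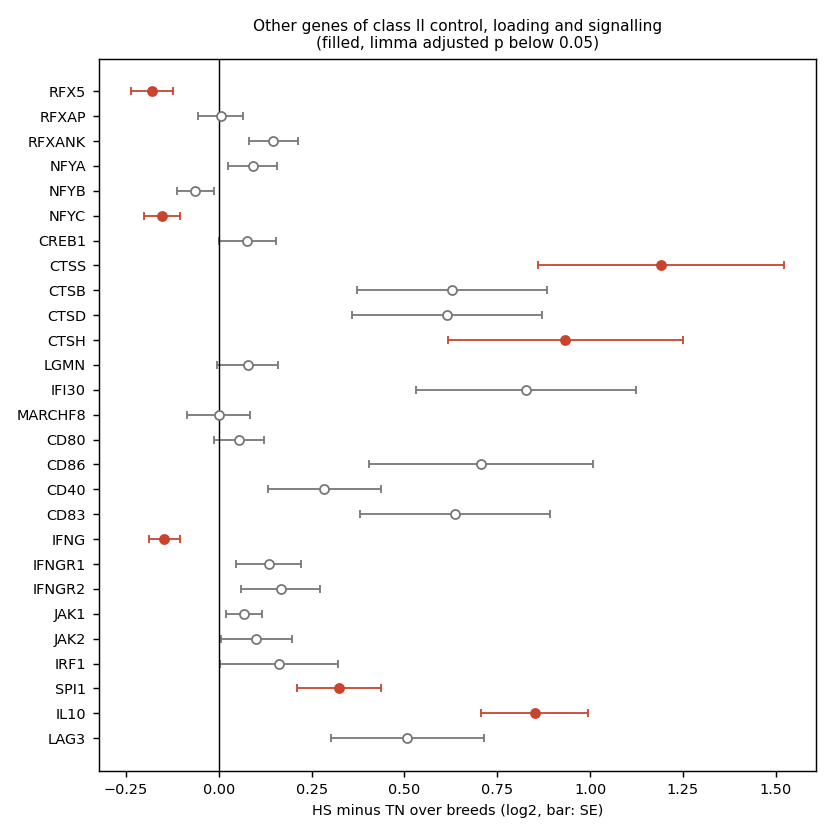
HS minus TN over breeds on the log2 scale (horizontal axis, bar: SE) for the 27 measured genes of class II control, loading and signalling, filled where called. CTSS (1.19), CTSH, IL10 and SPI1 were called higher, and RFX5, NFYC and IFNG lower by at most 0.18.

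Leukocyte, macrophage, dendritic cell and T cell marker means were also higher in HS pigs, and the B cell mean was not. In bulk muscle more cells of a type and more RNA per cell cannot be told apart. All 12 leukocyte genes were measured, and 11 were higher and 6 called higher in HS. Of all probes, 43.9% were higher and 7.73% called higher, which stands beside the counts of each list here. Their mean ranged from 8.91 to 12.38 over TN and from 10.54 to 12.91 over HS arrays, a difference of 0.79 within breeds (2-sided permutation test, adjusted p = 0.0167). Of the macrophage list 12 of 14 were measured, all 12 higher and 5 called, with a mean of 7.52 to 10.78 at TN and 9.36 to 11.08 at HS (difference 0.77, permutation adjusted p = 0.00666). For B cells 3 of 8 genes were measured, with a mean of 6.31 to 6.68 at TN and 6.31 to 6.57 at HS (-0.06, permutation adjusted p = 0.129). MS4A1 and CD79A were dim, and BLK, the only 1 of the 3 well above background on all arrays, was called lower (-0.13, limma adjusted p = 0.0404). For dendritic cells 3 of 10 were measured, with means of 7.15 to 8.38 and 7.62 to 8.57 (0.28, permutation adjusted p = 0.0217). CCR7 (0.44) and CADM1 (0.55) were called higher and XCR1 was at -0.15 (limma adjusted p = 0.455). FLT3 had no probe that passed the filter on dim probes, and CLEC9A and ZBTB46 had no probe with their name. T cell genes were measured for 8 of 9, with 7 higher and 1 called higher, and a mean from 7.09 to 8.08 and from 7.44 to 8.13 (0.18, permutation adjusted p = 0.0217).

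The mean of the 8 class II genes had an r of 0.84 with the leukocyte mean, 0.84 with the macrophage mean and 0.88 with the dendritic cell mean over 35 arrays with group means taken off. Without the 2 farthest arrays the values were 0.87, 0.86 and 0.84. For B cells r was 0.18. The class II mean counts all 8 genes equally, among them the SLA-DQA1 probe A_72_P743257 (within-group SD 1.36) and the dim SLA-DOB probe. With the leukocyte mean as a covariate no member was called in HS minus TN (limma; 7.28% of all probes; smallest adjusted p = 0.0668), and 11 of 30 had an unadjusted p below 0.05. The change was then 0.27 for SLA-DRA (adjusted p = 0.108), 0.27 for SLA-DQB1, 0.14 for SLA-DRB1, 0.12 for SLA-DMB, 0.12 for CD74 and 0.09 for SLA-DMA. Values of 28 of 30 probes were still above 0.

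Array brightness, the 75th percentile of the raw log2 signal, was also higher in HS, by 0.18 (permutation adjusted p = 0.0217). With it as a covariate 7 of 30 members were called higher, beside 3.21% of all probes called higher and 5.04% in either direction, and SLA-DRA changed by 0.54 and CD74 by 0.35. Other measures moved as well: the mean of connective tissue genes was higher at HS by 0.35 (permutation adjusted p = 0.00130). The mean of blood genes was lower, at -0.62 (adjusted p = 0.000390), as were endothelial genes at -0.18 (adjusted p = 0.0167) and skeletal muscle genes at -0.14 (adjusted p = 0.00611). Neutrophil genes differed by 0.04 (adjusted p = 0.864). The leukocyte mean and array brightness themselves differed between HS and TN pigs. The fits with these 2 covariates therefore cannot say what part either has in the class II change. The part of the other measures was not tested.

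**Figure D5:**
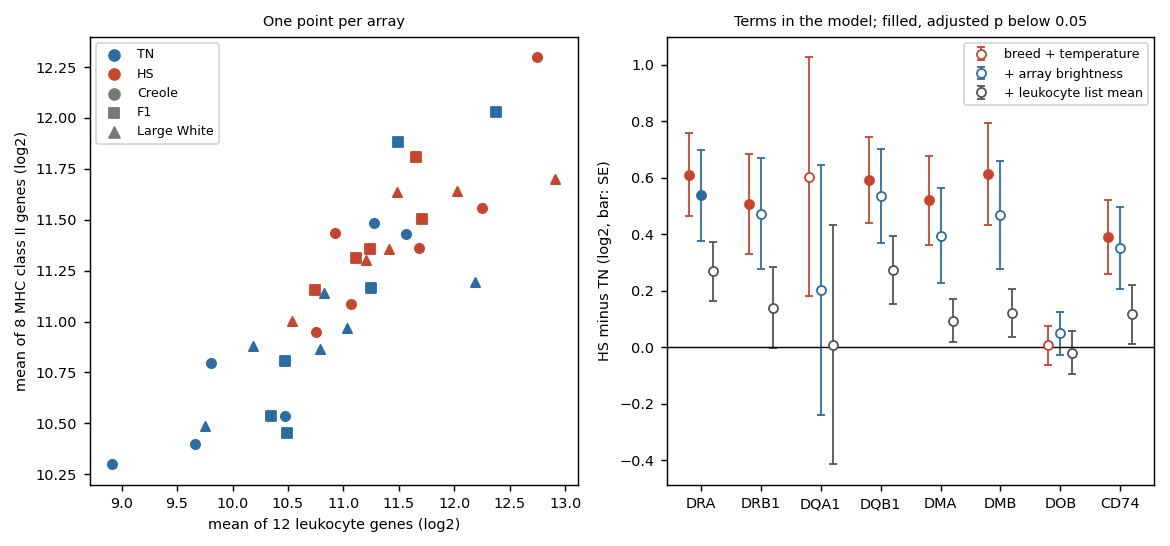
Left, mean log2 level of the 8 class II genes against that of the 12 leukocyte genes, 1 point per array (TN blue, HS red). Right, HS minus TN per gene (log2, bar: SE) with the covariates named, filled where the limma adjusted p was below 0.05: SLA-DRA goes from 0.61 to 0.54 with array brightness and to 0.27 with the leukocyte mean.

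The genes whose pig-to-pig pattern was most like the class II mean were C2 (r = 0.94), a complement component, CASP1 (0.91), the inflammasome protease, TNFSF13B (0.90), a B cell survival factor, SH3BP1 (0.89), SAMSN1 (0.88), NFKBIE (0.88), PTPRC (0.88), the common leukocyte antigen, CFP (0.87), FCHO1 (0.87) and RAC2 (0.86). The r is over 35 arrays with group means taken off and is a description. PTPRC and RAC2 also stand in the leukocyte list. The PTPRC probe found here (A_72_P442513) changed by 0.61 with heat, whereas the brightest PTPRC probe, which stands for the gene in the list, changed by -0.02.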

How the data were processed

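Per the labels, Cy3 cRNA from total RNA was hybridised to Agilent porcine arrays and read with Agilent Feature Extraction 10.10.1.1 (limma is also named in the submitters' processing notes, without a version). The scanner files as deposited hold median pixel intensity, mean and background intensity and a processed signal per spot, not normalised between arrays, and a deposited log2 value table holds the authors' processed values, used as an alternative. Its columns of the series each matched their own array best. Median intensities were quantile normalised and taken to log2 without background subtraction, control spots were left out, and 105 outlier spots were set missing. Probes well above background on 75% of the arrays of at least 1 group were kept (41517 of 60305). Fits used limma 3.58.1 in R 4.3.3: breed plus temperature for HS minus TN and the breed contrasts, and 1 mean per group for the comparisons within breeds, the interaction and pairs of groups. Adjusted p-values are Benjamini-Hochberg over all kept probes, with 0.05 as threshold. Pen, slaughter day and parents are random terms in the study's methods and are not given by the labels, so that they were left out. The fits were tested on simulated data with independent normal values for each probe and array. This simulation held no pens, litters, slides or likeness between probes, so that it cannot speak to error rates in their presence.

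Where 1 probe stands for a gene it is the kept probe with the highest mean, and member probes were taken by gene name, with the likest 10 other symbols named by r with the member mean. Pathway genes past the threshold are named with values, and other pathway genes named were chosen after their values were seen. List means were compared with 100000 permutations of TN and HS within breed, and p-values were adjusted over the 10 lists and 3 array measures. A gene of the pathway list is not reported here and was left out of its counts. The members and lists were chosen with earlier results of these data known. The number of arrays limits the precision, and p-values cover the spread between these pigs only. Alternatives were 3 other scalings, normexp with offset 50, the deposited table, 2 other filters, slide as a block and within slides, array weights, no breed term or 1 temperature alone, 2 covariates, other rules for probes, and each array left out in turn.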

Additional observations from a re-analysis of the deposited data

Results flagged for a closer look

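Of 48 sets of values (8 genes in 6 groups), 7 had an array far from the rest of its group by Dixon's ratio, the gap to the nearest array over the range. Chance gives about 1 in 20 for a single set. The 48 sets are not independent, since the 8 genes are read on the same arrays, so the count is not set against that rate. The same Large White TN pig, replicate 3, was the lowest of its group for 4 genes: SLA-DRA (12.96 against 13.44 for the nearest, ratio 0.676), SLA-DRB1 (11.84 against 12.75, ratio 0.700), SLA-DOB (5.73 against 6.12, ratio 0.813) and CD74 (10.50 against 10.71, ratio 0.745). For SLA-DRA, Creole HS replicate 1 was the highest of its group (14.99 against 14.12, ratio 0.669), as was F1 HS replicate 3 (14.58 against 13.99, ratio 0.746). The SLA-DQA1 probe A_72_P743257 was at 5.93 in Creole HS replicate 2, against 10.15 for the nearest pig (ratio 0.732).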

How the results depend on the processing

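No paired analysis was possible because the replicate numbers were given in accession order and pair no pigs. Over the breeds, the count of 21 called member probes ranged from 18 to 23 of 30 (18 of 31 without the filter, 21 of 25 with probes well above background on all arrays) under 10 alternatives of scaling, background, filter, slide, weights and breed term, and all of these calls were higher, except 1 lower call with median scaling (O6188, -0.18). It fell to 7 probes and 1 gene with array brightness as a covariate and to 0 probes and 0 genes with the leukocyte mean, and without 1 array it was 14 (without Creole TN replicate 1) to 25. Genes called ranged from 4 to 6 without 1 array. SLA-DRB1 lost its call with the 75th percentile scaling, without the filter and with all its probes averaged, and CD74 without the filter. Within Creole the 1 called probe became 2 with median scaling, 2 with probes well above background on all arrays, 4 (2 genes) with slide as a block, 0 with brightness and 0 with the leukocyte mean, and 0 to 9 probes and 0 to 3 genes without 1 array (9 without Creole TN replicate 3). In Creole minus Large White 1 probe was called with slide as a block (3.99% of all probes) and 1 with the leukocyte mean (5.46%). With the leukocyte mean 1 was also called in F1 minus Creole (1.17% of all probes). Called shares of all probes that were higher went from 48.2% to 86.6% with scaling to spike-in controls, 37.5% with the 75th percentile and 63.6% with brightness. Within the 4 slides that allow it, HS minus TN was 0.32 to 0.95 for SLA-DRA, 0.30 to 1.19 for SLA-DRB1, 0.35 to 1.05 for SLA-DQB1, 0.080 to 1.00 for SLA-DMA, 0.057 to 1.18 for SLA-DMB and 0.12 to 0.51 for CD74. It was -0.90 on slide 2 for SLA-DQA1, and -0.018 and -0.067 on slides 2 and 4 for SLA-DOB. The B cell mean passed the test with median scaling (-0.075), and the endothelial mean missed it with median (-0.11) and spike-in scaling (-0.030). The cause of these shifts was not tested. Dim signal limits SLA-DOB and O6188.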
